A study of Rattus norvegicus with 9 samples.

Results

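The 6 genes described here are Lgals1, Lgals3, Lgals5, Lgals8 and Lgals9, which encode galectins, and Lgals3bp, which encodes a secreted partner of galectin-3. They are 6 of the 17156 gene names in the tables, and all 6 were listed and passed the filter on low counts in every comparison. The set was chosen by a measured value, since Lgals1 had been seen among the largest falls in TA VS Model. Values of that comparison are therefore given as a description with no test, and Lgals1 is described without a test throughout, because its rats enter the other comparisons too.

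RNA of 9 livers from male Sprague-Dawley rats was sequenced, 3 each in the normal, model and TA groups. Model and TA rats received CCl4 by gavage at 2 ml/kg, as a 50% solution in oil, 2 times a week for 9 weeks, a treatment that scars the liver. TA rats were afterwards given tormentic acid, a plant triterpenoid, at 3.0 mg/kg for 6 weeks, a dose that the series' design gives and the sample labels do not. Normal rats received saline in place of CCl4, and all animals were fasted for 12 h before sampling. Reads counted on genes came to between 13156735 and 18090405 per liver. Model rat 1 stood apart, with 27.9% of its counts in its 50 most counted genes, against 40.4% to 45.7% in the other 8 livers. Its 8 hepatocyte markers, all of which were listed, summed to 26930 CPM (counts scaled to a common library size with TMM factors), against 76890 to 151500 in the other livers.

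Galectins are lectins that bind sugars ending in beta-galactose, both on glycoproteins outside the cell and on damaged vesicles inside it. Galectin-1 acts as a dimer of identical subunits, galectin-3 carries a single binding domain on a long flexible tail, and galectin-8 and galectin-9 carry a pair of binding domains each. In the liver, galectin-3 is best known from macrophages and for its part in the activation of stellate cells, which make the collagen of a scar.

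Promoters of 4 of the 6 genes, Lgals3bp, Lgals5, Lgals8 and Lgals9, could be matched in RefSeq on build GRCr8. The 300-base windows of Lgals5 and Lgals9, each from 250 bases before the start of the gene to 50 after it, are shown because they are near copies. The Lgals5 window lies at chr10:64355088-64355387 and the Lgals9 window at chr10:64428021-64428320, both on the minus strand. Capitals mark runs of 20 or more bases found in both windows.
Lgals5: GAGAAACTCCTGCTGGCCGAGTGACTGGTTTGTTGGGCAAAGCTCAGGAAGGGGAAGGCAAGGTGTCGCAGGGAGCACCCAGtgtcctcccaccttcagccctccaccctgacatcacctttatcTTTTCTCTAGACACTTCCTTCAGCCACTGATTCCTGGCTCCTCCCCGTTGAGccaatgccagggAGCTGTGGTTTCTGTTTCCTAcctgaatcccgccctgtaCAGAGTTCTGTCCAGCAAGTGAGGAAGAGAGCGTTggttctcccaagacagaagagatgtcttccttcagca
Lgals9: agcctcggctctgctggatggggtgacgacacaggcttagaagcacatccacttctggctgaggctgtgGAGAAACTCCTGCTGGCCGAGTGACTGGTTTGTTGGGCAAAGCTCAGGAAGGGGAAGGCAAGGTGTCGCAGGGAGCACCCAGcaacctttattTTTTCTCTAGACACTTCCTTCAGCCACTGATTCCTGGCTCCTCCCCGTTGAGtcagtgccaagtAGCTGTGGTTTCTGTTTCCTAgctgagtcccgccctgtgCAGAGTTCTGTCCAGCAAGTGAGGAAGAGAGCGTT
The runs in capitals came to 190 bases in each window, and the longest was 82 bases. Over 263 aligned columns, 223 bases were identical, 8 differed and 32 were gaps, an identity of 96.5% without the gaps. The longest run that Lgals3bp shared with Lgals5 was 7 bases and with Lgals9 8 bases. Most of each window lies before the start of the gene, so it does not show how alike the transcripts are. Whether reads were split between Lgals5 and Lgals9 was not tested, and the values of both are uncertain in that respect.

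The Lgals3bp promoter, at chr10:104127799-104128098 on the minus strand of GRCr8, is shown because Lgals3bp was higher in the model livers and is known as an interferon-induced gene. Capitals mark the match to the core of an interferon-stimulated response element (GAAANNGAAA) and, after it, the match to a TATA box (TATAAA), which is found here on both strands with overlapping letters.
Lgals3bp: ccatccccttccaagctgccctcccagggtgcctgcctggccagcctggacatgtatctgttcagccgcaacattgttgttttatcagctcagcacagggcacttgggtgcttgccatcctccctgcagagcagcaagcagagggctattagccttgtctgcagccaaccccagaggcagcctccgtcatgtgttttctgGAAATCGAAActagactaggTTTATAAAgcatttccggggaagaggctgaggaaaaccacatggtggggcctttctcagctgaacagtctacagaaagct
Both strands were searched, and the response element core was found in 3.82% of the 27457 promoters of this length. It was also found in Lgals5 and Lgals9, there on the opposite strand and inside a run that the windows share, so that those matches are not separate. The TATA box was found in 14.3% of promoters, and of the 4 genes only in Lgals3bp. An AP-1 site (TGANTCA, the same on both strands) was found in Lgals9 and not in the other 3 windows, and in 7.4% of all promoters. A match describes these letters and does not show that a factor binds there. Model rat 1 had the highest Lgals3bp of the 9 livers, at 151 CPM, and the lowest summed CPM of 13 interferon response genes, at 265. Both values were scaled by the TMM factor of model rat 1, at 1.695 the highest of the 9 livers. Its rank in the interferon sum depends on that scaling. A link between Lgals3bp and the interferon genes was not tested.

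In Model VS Normal, the galectins moved unequally. Lgals3 and Lgals3bp rose, with Lgals1 alongside them in level, and Lgals5, Lgals8 and Lgals9 did not pass the test. Of the 5 genes tested, 2 passed an adjusted p of 0.05 (edgeR's quasi-likelihood test with Benjamini-Hochberg adjustment), both higher. Of all 12730 genes tested, 7.87% passed in either direction and 6.86% were higher. In 3 of the 6 genes, every model rat was above every normal rat, as in 20.8% of all genes. Lgals1, by which the set was chosen, is among these 3 and enters the median that follows, so both are descriptions. The median log2 fold change was 1.33 over the 6 genes and 0.02 over all genes. Scaling by library totals alone in place of TMM moved the median of all genes to 0.65 in Model VS Normal, to -0.48 in TA VS Model and to 0.18 in TA VS Normal. Under it Lgals9 and Lgals5 turned to -0.076 and -0.41 in TA VS Model, Lgals8 turned to 0.052 in TA VS Normal, and the other galectins kept their directions.

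**Figure D1:**
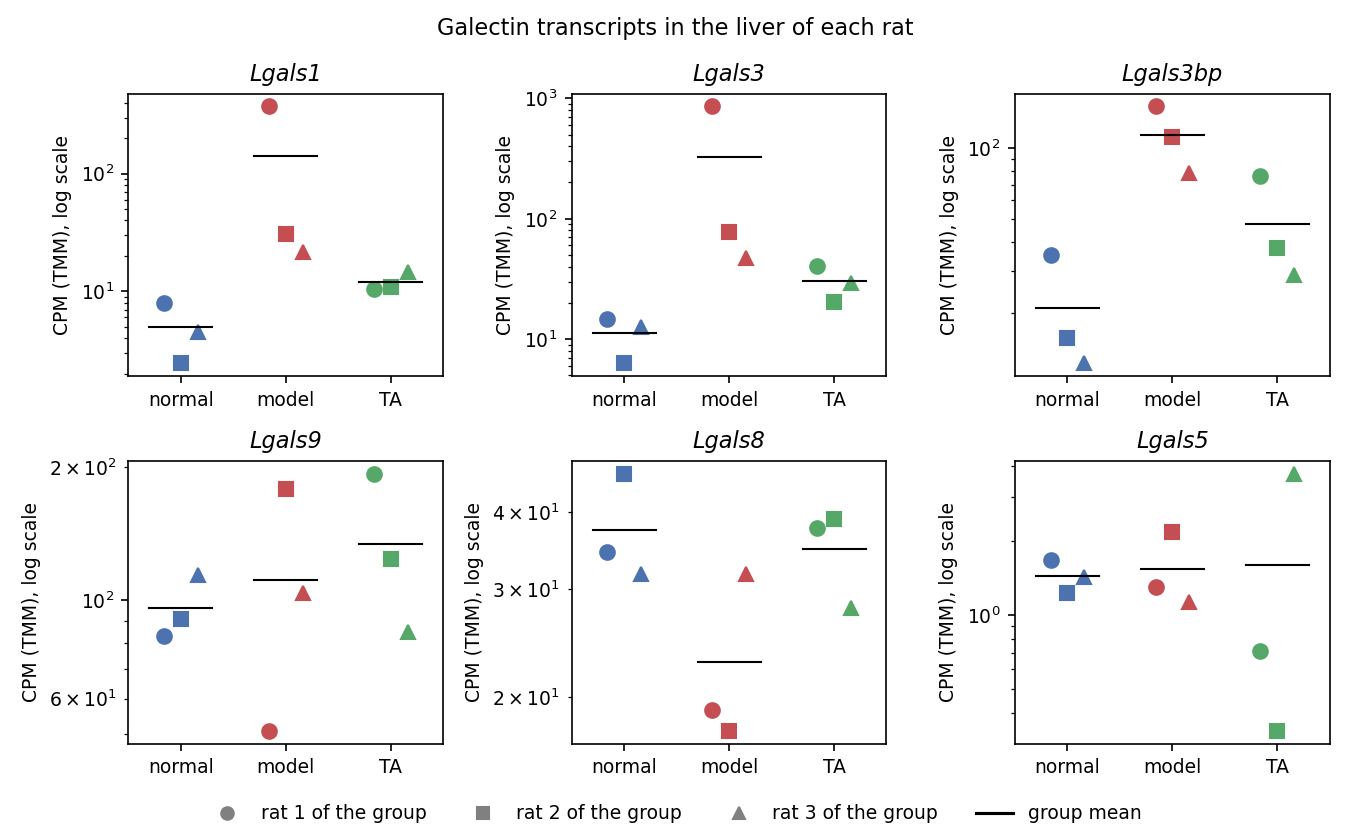
Level of each galectin in each liver, in CPM after TMM scaling on a log axis, with 1 point per rat, the shape giving the rat's number in its group, and a line at the group mean (n = 3). Lgals1 and Lgals3 reached 373 and 857 CPM in model rat 1, and Lgals5, Lgals8 and Lgals9 overlapped between groups.

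Lgals1 encodes the dimeric galectin-1, which fibroblasts and activated stellate cells make in quantity. Its level was 7.97, 2.45 and 4.53 CPM in normal rats, 373, 30.8 and 21.4 CPM in model rats and 10.5, 10.8 and 14.6 CPM in TA rats. The 3 groups did not overlap, and the TA rats lay between the other groups. In Model VS Normal the log2 fold change was 4.84 (standard error 1.19, n = 3 per group). Model rat 1 was 14.3 times as high as the mean of the other model rats, and without it the model mean was 5.24 times the normal mean.

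Lgals3 encodes galectin-3. Its level was 14.7, 6.31 and 12.7 CPM in normal rats, 857, 77.9 and 46.8 CPM in model rats and 40.8, 20.4 and 29.2 CPM in TA rats. Again the groups did not overlap, and model rat 1 was 13.7 times as high as the mean of the other model rats. Lgals3 rose in Model VS Normal, by 4.87 on the log2 scale (standard error 1.16, 95% interval 2.19 to 7.56, adjusted p = 0.0447 by edgeR). Without model rat 1 the log2 fold change was 2.47 (adjusted p = 0.0109). Without normal rat 1, 2 or 3 the adjusted p was 0.128, 0.178 or 0.165 by edgeR, in fits where 51, 0 and 0 of all genes passed.

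Lgals3bp encodes a secreted glycoprotein that binds galectin-3 and is no galectin itself. Its level was 35.0, 15.6 and 12.2 CPM in normal rats, 151, 111 and 78.8 CPM in model rats and 76.0, 37.6 and 29.0 CPM in TA rats. All model rats were above all normal rats, TA rats 2 and 3 lay among or just above the normal rats, and the spread within the model group was far smaller than for Lgals1 and Lgals3, since model rat 1 was 1.59 times as high as the mean of the other model rats. Lgals3bp rose in Model VS Normal, by 2.45 on the log2 scale (standard error 0.46, 95% interval 1.39 to 3.50, adjusted p = 0.0258 by edgeR). Without model rat 1 it was 2.17 (adjusted p = 0.0266), and without normal rat 2 or 3 the adjusted p was 0.140 or 0.117 by edgeR. Without normal rat 2 or 3, none of all genes passed.

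Lgals9 encodes galectin-9, an interferon-induced galectin that binds the T cell receptor Tim-3, the product of Havcr2. Its level was 83.1, 90.7 and 114 CPM in normal rats, 50.8, 178 and 104 CPM in model rats and 193, 124 and 84.8 CPM in TA rats. The groups overlapped in every comparison. Model rat 1 held the lowest CPM of all 9 livers, but this depended on the scaling. In FPKM it was at 30.9, above normal rats 1 and 2 at 25.3 and 28.1 and TA rat 3 at 28.0. In Model VS Normal the log2 fold change was 0.21 (standard error 0.44, 95% interval -0.79 to 1.22, adjusted p = 0.778 by edgeR).

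Lgals8 encodes galectin-8, which marks damaged lysosomes and vesicles for clearance. Its level was 34.4, 46.1 and 31.6 CPM in normal rats, 19.1, 17.6 and 31.7 CPM in model rats and 37.6, 39.0 and 27.9 CPM in TA rats. In CPM, model rats 1 and 2 were the lowest of the 9 livers, and model rat 3 lay within the normal range. In FPKM, model rat 1 was at 12.9, within the normal range of 10.3 to 15.8. The log2 fold change in Model VS Normal was -0.71 (standard error 0.29, 95% interval -1.39 to -0.04, adjusted p = 0.155 by edgeR). Without model rat 3 it was -1.04 (adjusted p = 0.0391). With library totals alone in place of TMM it was -0.13 (adjusted p = 0.760 by edgeR), so its size depended on the scaling. Under limma voom with sample quality weights it was -0.92 and passed (adjusted p = 0.0214 by limma voom).

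Lgals5 encodes galectin-5, a rat galectin known from red blood cells and their precursors. Only 20, 19 and 17 reads were counted in normal rats, 29, 33 and 16 in model rats and 10, 4 and 50 in TA rats. The TA group held both the lowest and the highest level, at 0.338 CPM in TA rat 2 and 3.73 CPM in TA rat 3. In Model VS Normal the log2 fold change was 0.10 (standard error 0.47, 95% interval -0.98 to 1.18, adjusted p = 0.909 by edgeR).

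In TA VS Model, the galectins that were high in the model livers were lower. The log2 fold change was -3.57 (standard error 1.07) for Lgals1, -3.44 (1.09) for Lgals3 and -1.26 (0.43) for Lgals3bp. Lgals1 was the 65th and Lgals3 the 77th largest fall among the 12781 genes fitted. These 3 of the 6 genes were below -1, as were 14.4% of all genes, and the same genes had every TA rat below every model rat, as in 12.8% of all genes. Lgals1, whose fall led to the choice of the set, is 1 of the 3, so these counts only describe the set. For Lgals3bp the margin was narrow, with 76.0 CPM in TA rat 1 and 78.8 CPM in model rat 3. The log2 fold changes of Lgals8, Lgals9 and Lgals5 were 0.61 (0.29), 0.28 (0.50) and 0.06 (0.83).

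The size of the fall in Lgals1 and Lgals3 depended on model rat 1 and on the fit. Without that rat, the log2 fold changes were -1.11 for Lgals1, -1.03 for Lgals3 and -0.99 for Lgals3bp. In CPM, the TA mean was then 0.458, 0.483 and 0.500 times the mean of the model rats left. With all 3 model rats the same quotients were 0.0844, 0.0921 and 0.418. With all model rats kept, limma voom with sample quality weights put Lgals1 and Lgals3 at -1.57 and -1.36, and the replicate block put them at -2.24 and -2.28.

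**Figure D2:**
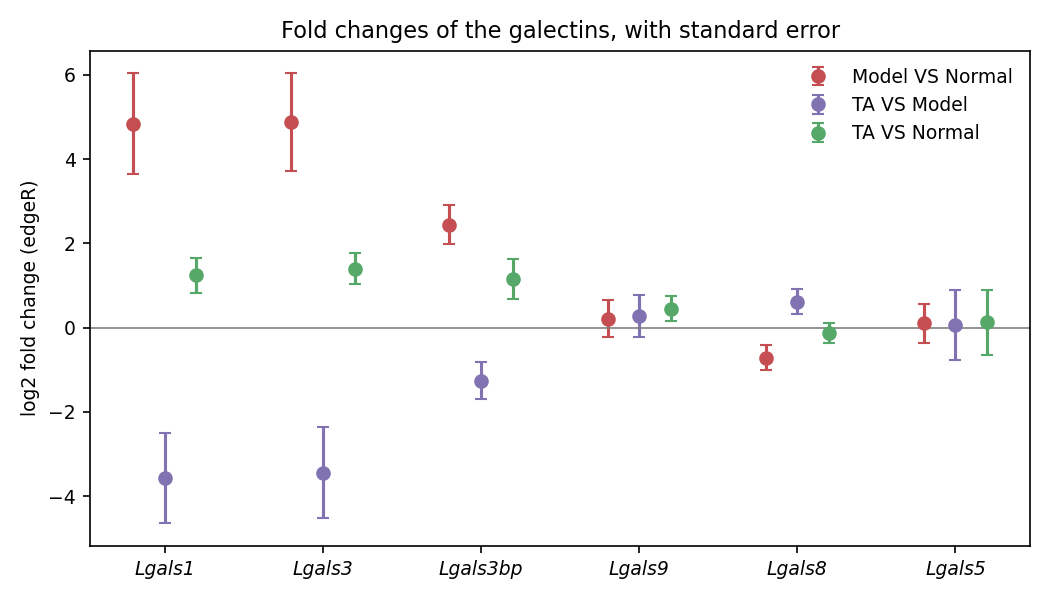
Log2 fold changes fitted with edgeR for the 6 genes in the 3 comparisons (n = 3 per group), with bars of 1 standard error. Lgals1 and Lgals3 were at 4.84 and 4.87 in Model VS Normal and at -3.57 and -3.44 in TA VS Model, with the widest bars of the set in Model VS Normal.

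In TA VS Normal, which uses the same TA and normal rats as the other comparisons, none of the 5 genes tested passed, against 0.263% of the 12179 genes tested in either direction and 0.23% that were higher. An unadjusted p under 0.05 was reached by 1148 of all genes and by 2 of the 5, Lgals3 and Lgals3bp, and DESeq2 called 1 of the 5, Lgals3. For Lgals1 and Lgals3, every TA rat was above every normal rat, as in 9.07% of all genes. The log2 fold change was 1.24 (standard error 0.41) for Lgals1, with no test. It was 1.40 (standard error 0.37, 95% interval 0.56 to 2.24, adjusted p = 0.197) for Lgals3 and 1.16 (0.47, 0.07 to 2.24, adjusted p = 0.477) for Lgals3bp by edgeR. With the rat number as a block, Lgals3 was at 1.42 (adjusted p = 0.0119) and Lgals3bp at 1.18 (adjusted p = 0.0106), and both passed. The labels give the number alone and do not say that rats of the same number belong together.

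The distance from normal that was left in the TA livers can be put as the quotient of the fitted log2 fold changes, TA VS Normal over Model VS Normal. It was 0.256 for Lgals1, 0.288 for Lgals3 and 0.473 for Lgals3bp. With Model VS Normal fitted without model rat 1, it was 0.520, 0.568 and 0.533. For Lgals9, Lgals8 and Lgals5, the log2 fold changes in TA VS Normal were 0.45 (adjusted p = 0.768), -0.13 (adjusted p = 0.952) and 0.12 (adjusted p = 0.990) by edgeR.

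Compared per length, in the FPKM values the authors deposited, Lgals9 was the leading galectin of the normal liver. Its FPKM was 29.0 ± 4.19 (SD, n = 3), above Lgals8 at 12.6 ± 2.88 in all 3 rats. Lgals8 overlapped with Lgals3 at 8.65 ± 3.31, Lgals1 at 8.27 ± 4.66 and Lgals3bp at 8.02 ± 4.78, and Lgals5 was lowest at 1.33 ± 0.198. In the model livers the means of Lgals3 and Lgals1 were highest, at 487 ± 734 and 455 ± 688 FPKM, with errors that exceed the means. In model rat 1 they were at 1334 and 1249 FPKM against 30.9 FPKM for Lgals9. In model rat 2 Lgals9, at 74.3 FPKM, lay between Lgals3 at 82.8 and Lgals1 at 70.4, and in model rat 3 the values were 39.3, 45.4 and 44.7 FPKM.

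In shares of the summed FPKM of the 6 genes, Lgals1 and Lgals3 together made up 32.3%, 15.2% and 25.3% in normal rats, 94.1%, 51.6% and 49.5% in model rats and 32.7%, 34.1% and 48.6% in TA rats. The model rats were all above the TA rats and the TA rats all above the normal rats, each time by less than 1 percentage point between the nearest rats. Lgals9 made up 43.3% ± 9.16 in the normal, 15.9% ± 12.9 in the model and 34.5% ± 6.85 in the TA livers (SD, n = 3). The ratio of Lgals3 to Lgals1 in FPKM was between 0.857 and 1.81 in all 9 livers, while the level of each ranged far more widely.

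**Figure D3:**
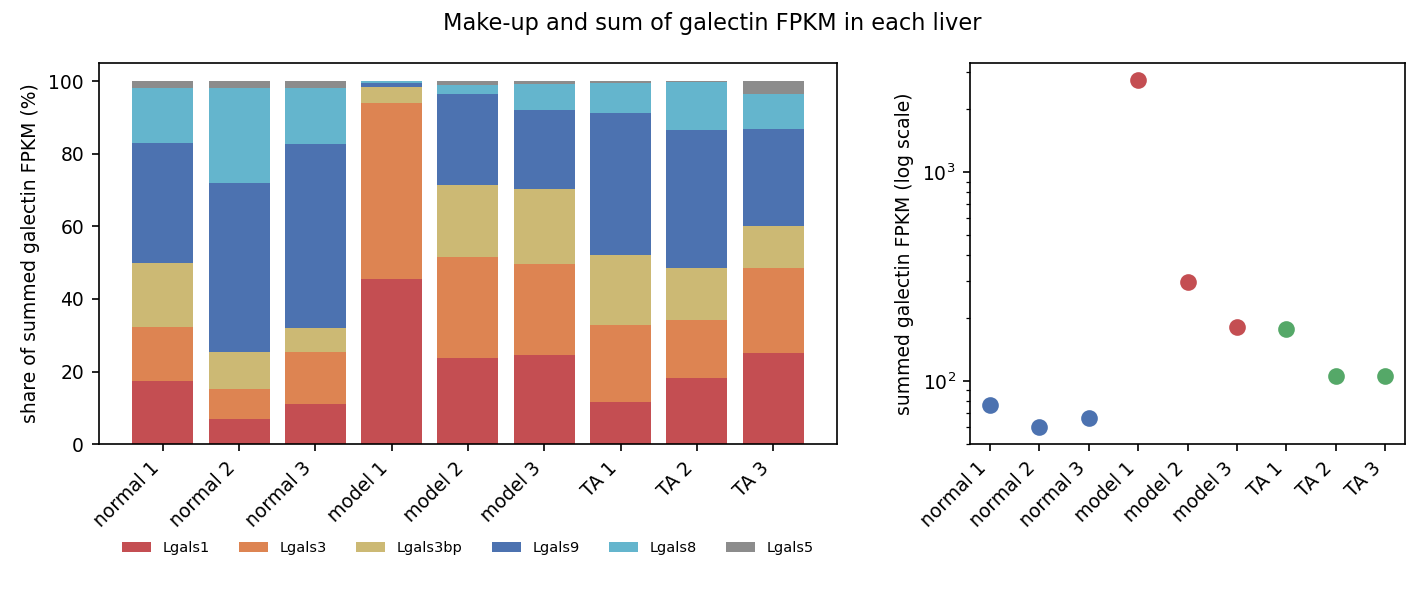
Left, share of each gene in the summed FPKM of the 6 galectin genes in each liver, in percent. Right, that sum on a log axis, at 60.3 to 76.7 in the normal, 182 to 2746 in the model and 105 to 177 in the TA livers.

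Over the 9 livers, Lgals1 and Lgals3 ran closely together, with Pearson's r = 0.987 on log2 CPM, and 0.953 over the 8 livers without model rat 1. These and the following r are descriptions over livers that share their groups, and no test was made. Of 7958 genes whose log2 CPM averaged 3 or more, those most like Lgals1 were Cln6 (0.992), Lgals3 and Agpat1 (0.986). For Lgals3 they were Capn2 (0.993), Cmtm7 (0.991) and Col16a1 (0.990), and for Lgals3bp Rtn4 (0.986), Cnp (0.983) and Tceal9 (0.978). For Lgals9 they were Trim21 (0.913), Got1 (0.903) and Syap1 (0.902), for Lgals8 Lonp1 (0.975), Gatb (0.973) and March6 (0.971), and for Lgals5 Ppie (0.933), Rps12 (0.931) and Rpl28 (0.923).

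Some markers of other liver cells moved with Lgals1, Lgals3 and Lgals3bp, and others moved the opposite way. The 9 myofibroblast and stellate cell markers tested summed to 208 to 301 CPM in the normal rats, 1205 to 12680 in the model rats and 691 to 1177 in the TA rats, and 6 of them rose in Model VS Normal, among them Col1a1, at a log2 fold change of 7.08 (adjusted p = 0.0309 by edgeR). All 5 cholangiocyte markers tested rose, with sums of 16.4 to 24.8 CPM in the normal, 88.9 to 151 in the model and 30.5 to 37.0 in the TA livers. Of 10 macrophage markers, 2 rose, Trem2 and Gpnmb, and 6 had a positive log2 fold change. Without model rat 1, 2 passed as higher and 2 as lower, and without model rat 3, 4 as higher and 3 as lower. In those fits 888 and 2537 of all genes passed. The sum of the list was 455, 350 and 333 CPM in the normal and 1925, 265 and 379 CPM in the model rats. In that sum model rats 2 and 3 were not above the normal group, but single markers differed. Cd68 was at 32.3, 20.7 and 25.9 CPM in the normal and 268, 38.9 and 43.6 CPM in the model rats. The log2 fold changes of Cd68, Csf1r and Adgre1, at 2.16, 1.47 and 1.01, did not pass. The Kupffer cell marker Clec4f was at 179, 163 and 146 CPM in the normal and 12.9, 45.2 and 115 CPM in the model rats, and Marco and Cd5l, also of resident macrophages, had log2 fold changes of -2.17 and -1.14 that did not pass. The 8 hepatocyte markers summed to 113100 to 141900 CPM in the normal, 26930 to 96040 in the model and 89370 to 151500 in the TA livers, with all 8 negative in Model VS Normal (median log2 fold change -0.91) and 7 positive in TA VS Model (median 0.90). None of the 8 hepatocyte, 6 endothelial or 7 T and NK cell markers tested passed in Model VS Normal by edgeR, where 3674 of all genes had an unadjusted p under 0.05. Without any 1 of the 3 normal rats, none of the myofibroblast and stellate or macrophage markers and at most 1 of the cholangiocyte markers passed. Without normal rat 1, 2 or 3, 51, 0 and 0 of all genes passed, so the loss is not particular to these markers. Some markers with few reads in normal rats passed the filter on low counts through the model rats. Among them were the cholangiocyte marker Krt7 (1, 0 and 2 reads) and Trem2 (0, 3 and 7 reads). In whole liver, more cells of a type and more RNA per cell cannot be told apart, and the part of these cells in the galectin levels was not tested.

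Lgals9 and Lgals5 were set beside the lists that fit what they are known for. The 13 interferon response genes, of which none passed in Model VS Normal, summed to 628, 442 and 452 CPM in the normal, 265, 484 and 540 in the model and 650, 426 and 365 in the TA rats. Bst2 was the largest part of each sum, at 388, 302 and 264 CPM in the normal and 125, 229 and 190 CPM in the model rats. Its log2 fold change in Model VS Normal was -0.81. Of the 13 genes, 10 were positive in Model VS Normal (median 0.56) and 11 in TA VS Normal (median 0.71). Model rat 1 was lowest and TA rat 1 highest in the summed CPM of the 13 genes, as they were for Lgals9 in CPM. Both values of model rat 1 were scaled by the same high TMM factor, and its rank in the sum depends on that scaling. Other livers differed in order, as normal rat 1 had a sum of 628 and Lgals9 at 83.1 CPM, and model rat 2 had 484 and 178 CPM. The 7 erythroid genes listed summed to 267 and 292 CPM in TA rats 1 and 2 and 1617 in TA rat 3, which also had the highest Lgals5. Most of the sum in TA rat 3 came from the globin genes Hba-a2 and Hbb, at 1159 and 446 CPM. In TA rats 1, 2 and 3, Alas2 was at 1.92, 2.28 and 9.62 CPM, Epb42 at 0.427, 0.508 and 0.522 CPM and Klf1 at 0.285, 0.0846 and 0.224 CPM. Slc4a1, a membrane protein of red cells, was at 1.27 CPM in TA rat 3 and at 4.56 and 5.41 CPM in the other TA rats. The share of blood in each liver was not tested.

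**Figure D4:**
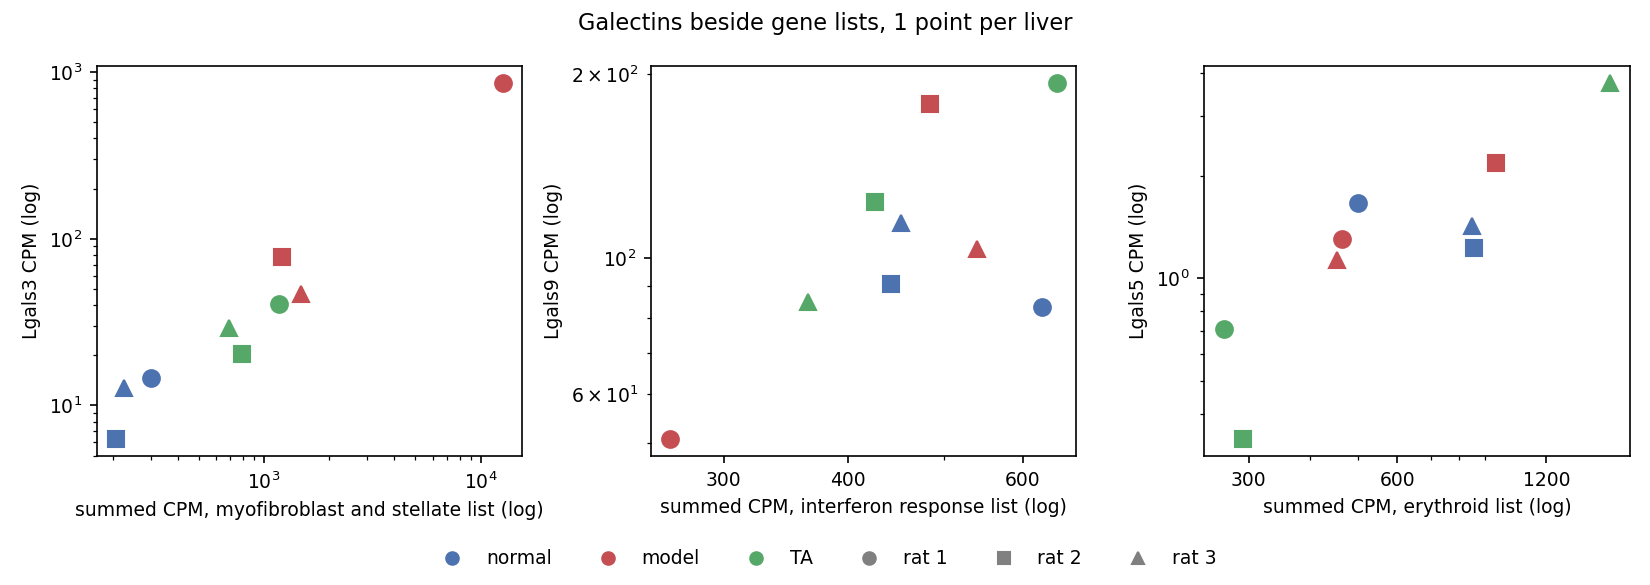
Level of Lgals3, Lgals9 and Lgals5 in CPM against the summed CPM of the myofibroblast and stellate, interferon response and erythroid lists, 1 point per liver, all axes log, colours giving the group and shapes the rat number. Lgals5 and the erythroid sum were both highest in TA rat 3, at 3.73 and 1617 CPM, and most of that sum was the globin genes Hba-a2 and Hbb.

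Among the other galectin genes, 5 of 6 on the list were in the tables. Lgals2, a dimeric galectin of the gut, had 7, 8 and 5 reads in normal rats, 96, 76 and 24 in model rats and 16, 9 and 34 in TA rats. Lgals2 rose in Model VS Normal, by 2.85 on the log2 scale (standard error 0.56, adjusted p = 0.0293 by edgeR), and was at -1.30 (0.61) in TA VS Model. It passed the filter on low counts through the model rats, where it is high, and was filtered out in TA VS Normal. Its call is therefore a description. The call was lost without any 1 of the normal rats and without model rat 2. Of all genes, 51, 0 and 0 passed without normal rat 1, 2 or 3, and 589 without model rat 2. Lgalsl, which encodes a galectin-related protein, was at 0.14 (0.33, adjusted p = 0.808) in Model VS Normal. Lgals4, Lgals7 and Grifin had at most 5 reads in any liver.

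Glycoproteins known to bind galectins rose in part. Of 21 counter-receptor genes tested in Model VS Normal, 6 rose and none fell, beside 6.86% of all genes that were higher, and the median log2 fold change of the 21 was 0.72. Cd44, the hyaluronan receptor, was at 8.64, 3.99 and 3.61 CPM in the normal, 99.4, 41.3 and 33.0 CPM in the model and 15.7, 8.04 and 8.28 CPM in TA rats. On the log2 scale it rose by 3.43 (standard error 0.54, adjusted p = 0.0155 by edgeR), and all model rats lay above all other livers.

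Itga3, a laminin-binding integrin, Nrp1, a co-receptor for vessel growth factors, and Pdpn, a mucin-like membrane protein, rose by 2.56, 2.72 and 5.02 on the log2 scale (adjusted p = 0.0160, 0.0273 and 0.0287 by edgeR). Pdpn had 4, 6 and 0 reads in normal rats and passed the filter on low counts through the model rats, so its call is a description. Itga6 and Cd63 were the other 2 that rose. The receptors of T cells did not pass, with Lag3 at -1.75 (adjusted p = 0.098) and Havcr2 at 1.24 (adjusted p = 0.188) by edgeR. Without model rat 1 there were again 6 that rose. Without any 1 of the 3 normal rats none did, where 51, 0 and 0 of all genes passed. In TA VS Model, 5 of 21 were below -1, beside 14.4% of all genes, and 2 were above 1, Egfr at 1.26 and Lag3 at 1.38. In TA VS Normal none of 20 passed, and Pdpn was filtered out there.

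The enzymes that build the sugars galectins bind gave 1 call among 19 genes tested in Model VS Normal, a share near the 6.86% of all genes that were higher. B4galt2, which adds galactose to growing chains, was at 0.415, 0 and 0.252 CPM in the normal and 8.21, 2.96 and 2.41 CPM in the model rats, a log2 difference of 4.38 (adjusted p = 0.0363 by edgeR). With 5, 0 and 3 reads in normal rats, it passed the filter on low counts through the model rats, so its call is a description. The call was lost without normal rat 1, 2 or 3, where 51, 0 and 0 of all genes passed. St6gal1, whose sialic acid caps the galactose and hinders galectin-1 binding, was at 428, 396 and 313 CPM in the normal and 77.5, 212 and 238 CPM in the model rats. All model rats were below all normal rats, and the log2 fold change of -1.10 did not pass (adjusted p = 0.155 by edgeR). The response to damaged lysosomes, in which galectin-8 takes part, had no call among 9 genes tested, with a median of -0.31.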

How the data were processed

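Liver RNA of 9 rats was selected by poly(A), sequenced in pairs, trimmed, mapped with STAR and counted with HTSeq-count by the authors. The methods name hg19, the submitters' processing notes name mm9 and DESeq2, and the symbols are those of rat genes, so no coordinates of the mapping are given. Of 17156 names, 15601 matched RefSeq symbols of GRCr8, used for names and promoters alone.

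The authors deposited read counts per gene, not normalized, in a table for normal and model (16938 genes) and one for TA and model (16948), with equal model counts in both. The authors deposited FPKM values too, which were used to compare genes with each other. Their DESeq2-normalized values, log2 fold changes and p-values were not used. TA VS Normal used the 16730 genes in both tables.

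Counts were tested with R 4.3.3 and edgeR 4.0.16 (quasi-likelihood, TMM, filterByExpr, Benjamini-Hochberg over all genes, threshold 0.05), tested on simulated data first. limma 3.58.1 (voom), DESeq2 1.42.0, other scalings, no filter, a fit of all 9 libraries, a block for the replicate number, and fits without each library were alternatives. Standard errors are the log2 fold change over the square root of F. Intervals use the t distribution at 95%. Promoter windows were aligned with Biopython 1.88. The p-values measure the spread between 3 rats per group, and nothing beyond separate samples is stated of them. Depth was 13156735 to 18090405 counts per liver.

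The members and lists were chosen with earlier results of these data known. Named were the 6 members, the other galectins listed, the 3 genes most like each member, and up to 4 genes of each list with the smallest adjusted p. Other genes of the lists were named after their values were seen. Replicate numbers come from the labels. Deviations from the group mean were correlated between samples of the same number. The r were 0.256, 0.424 and 0.498 in TA VS Normal, 0.211, -0.0567 and -0.0521 in Model VS Normal and 0.219, -0.0354 and 0.00668 in TA VS Model. Samples of unlike number reached 0.170, 0.198 and 0.195 in these comparisons. Each mean is over 3 rats, so these r depend on each other and no test was made.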

Additional observations from a re-analysis of the deposited data

How the results depend on the processing

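In Model VS Normal the count of 2 galectins that passed was 2 under DESeq2, other scalings, no filter, all 9 libraries in 1 fit and the replicate block. It was 3 under limma voom, with Lgals8, which was lower, as the added gene. It ranged from 0 (without normal rat 2 or 3) to 3 (without model rat 3) when 1 library was left out, and was 1 without normal rat 1. Over all genes, 1002 calls became 2714 with DESeq2, 3433 with voom, 1980 with library totals and 1757 with all 9 libraries, and 0 to 2537 with 1 library left out. The 0 came without normal rat 2 or 3, where 2727 and 3119 genes had an unadjusted p under 0.05. Without normal rat 1, 51 genes passed and 2991 had an unadjusted p under 0.05. The count of galectins below -1 in TA VS Model was 3 under each other setting and 2 to 3 with 1 library left out, but not always of the same genes. Under voom and without TA rat 3, Lgals3bp was at -0.98 and -0.99 and Lgals5 was below -1 in its place. In Model VS Normal, voom gave 2.77 for Lgals1 and 2.90 for Lgals3.

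In TA VS Normal, 0 galectins passed, but 1 with DESeq2 (Lgals3, adjusted p = 0.0213) and 2 with the replicate block, and 0 with any 1 library left out. All genes called went from 32 to 332 with DESeq2, 126 with voom, 56 with library totals, 76 with no filter, 203 with the replicate block and 14 with all 9 libraries, and to 1 to 61 with 1 library left out. The replicate block changed no other galectin call.

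Some directions turned, and the cause was not tested. With 1 library left out, Lgals5 ranged in Model VS Normal from -0.23 (without model rat 2) to 0.25, at -0.026 without normal rat 2, and it was 0.71 with library totals and 0.34 with voom. In TA VS Model it was -1.43 with voom, -0.41 with library totals, -0.48 with the replicate block and -1.50 to 0.54 with 1 library left out (-0.030 without model rat 1, -0.098 without model rat 3). In TA VS Normal it was -1.07, -0.36 and -1.44 with voom, the block and without TA rat 3, and at most 0.59 with 1 library left out. Lgals9 was at -0.31 in Model VS Normal without model rat 2. In TA VS Model it was -0.076 with library totals, -0.063 without model rat 1 and -0.077 without TA rat 1, with 0.80 as the highest with 1 library left out. Lgals8 in TA VS Normal was 0.052 with library totals, 0.049 without normal rat 2 and 0.0065 without TA rat 3, with -0.25 as the lowest with 1 library left out. Lgals5 had at most 50 reads in a liver, and depth limits its values and those of the other galectins with few reads. Leaving out libraries for the counter-receptors was chosen after seeing the data and gave 0 to 7 that rose.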
